A study of Mus musculus with 9 samples.

Results

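The comparison set osteoblastic cells given 0.5 Gy of alpha particles against cells given 0 Gy. It rests on 6 of the 9 arrays of the series, 3 per dose, and the arrays were chosen by the dose in their titles. The cells came from male C57BL/6 mice, 8 weeks old, whose marrow was grown in culture for 7 days. A further 7 days followed in a differentiation medium with β-glycerophosphate, an ascorbic acid phosphate salt and dexamethasone, which promote mineralising osteoblasts. Both groups share this strain, sex, age and culture, and they differ in the labels only by the alpha dose, delivered at 0.22 Gy/min. The 3 arrays at 1 Gy entered the main fit only to help estimate the spread between arrays. In the fit with the slide as a block they also help set the slide terms, and so the difference between the doses. In the processing they also had a part in the choice of probes for scaling and in the floor. Whether the arrays of a dose came from separate mice or cultures is not labelled. The p-values therefore reflect the spread between these samples alone, which may be technical. How long after exposure the RNA was taken is not given here.

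MicroRNAs (miRNAs) are short RNAs that guide Argonaute proteins to messenger RNAs and lower their translation or stability. Target choice depends mostly on the seed, bases 2 to 8 of the mature strand, so miRNAs with the same seed form families with overlapping targets. In the osteoblast lineage, some miRNAs restrain the transcription factor Runx2 or the response to bone morphogenetic proteins, and others lower inhibitors of differentiation. Alpha particles deposit energy densely along short tracks, and the resulting double-strand breaks activate p53, which raises the transcription of the miR-34 genes.

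The sequences of the miRNAs on which the results turn are given first, from RefSeq (GRCm38.p6), 5′ to 3′, with the seed in capitals. RefSeq held a mature sequence for 1608 of the 1881 miRNAs on the array and for 165 of the 186 miRNAs tested. The let-7 family and the miR-125 pair are shown because each shares a seed and had higher mean signal at 0.5 Gy. miR-365-3p, miR-193b-3p, miR-92a-3p, miR-34a-5p and miR-574-3p are shown as leading miRNAs of higher mean, and the last 7 as leading or very bright miRNAs of lower mean.
let-7a-5p: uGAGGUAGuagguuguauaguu
let-7b-5p: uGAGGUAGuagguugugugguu
let-7c-5p: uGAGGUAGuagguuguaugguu
let-7e-5p: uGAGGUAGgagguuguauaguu
let-7f-5p: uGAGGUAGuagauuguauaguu
miR-125a-5p: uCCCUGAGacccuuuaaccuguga
miR-125b-5p: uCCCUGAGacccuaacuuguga
miR-365-3p: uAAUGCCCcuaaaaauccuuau
miR-193b-3p: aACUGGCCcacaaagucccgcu
miR-92a-3p: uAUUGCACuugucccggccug
miR-34a-5p: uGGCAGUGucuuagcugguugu
miR-574-3p: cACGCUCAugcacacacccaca
miR-574-5p: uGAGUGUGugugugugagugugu
miR-370-3p: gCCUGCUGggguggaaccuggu
miR-188-5p: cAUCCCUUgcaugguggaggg
miR-6385: gCAAGGAUgacagagaggaag
miR-135a-1-3p: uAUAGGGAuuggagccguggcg
miR-7048-5p: cGGGGCUGagaggugaggaagc
miR-494-3p: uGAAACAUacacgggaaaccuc

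Some properties of the arrays bear on every result and come before them. Array 1 of 0.5 Gy had an additive error of 19.4 in scanner units, against 1.60 to 2.83 on the other 5 arrays of the comparison. On the log2 scale of the scaled signal used throughout, the 1st percentile of its detected miRNAs was 7.34, against 3.28 to 3.75 on the others. Of the 216 miRNAs detected there, 3 lay below that percentile, down to 7.18, so levels below 7.18 on this array belong to miRNAs not detected there. Of the 186 tested miRNAs, 101 sat there at the floor of 3.52, the lowest level kept on any array. It detected 32 of the 186, and 97 miRNAs were detected on the other 5 arrays and not on it. In the other direction, 150 miRNAs were detected there and on no other array of the comparison, and 71 of these were also detected on array 1 of 1 Gy, the other array of high background.

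Array 3 of 0 Gy and array 3 of 0.5 Gy held almost the same profile. Over the 311 probes detected on both, the SD of the log2 differences was 0.178, Pearson's r was 0.995, and no probe differed by more than 0.585. This was the closest of the 15 pairs of arrays in the comparison. Pairs of the same dose had SDs of 0.88 to 1.62 at 0 Gy and of 0.52 to 1.49 at 0.5 Gy. Between the arrays 3, 31.5% of probes differed by more than 3 times the error of their spots, against 63.1% between arrays 2 and 3 of 0.5 Gy, the next closest pair, so the values are not identical. The labels record no shared source for these samples, and a shared source was not tested. The counts of calls and the medians of the main lists and of the leading miRNAs are also given without this pair.

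Array 1 of 0 Gy stood apart from the other arrays of its dose. miR-494-3p alone gave 54.7% of its summed signal, against 2.80% to 6.53% on the other 5 arrays of the comparison, and 36 tested miRNAs were at the floor there. Arrays 1 and 3 of both doses lay on one slide, array 2 of 0 Gy on another, and array 2 of 0.5 Gy on one more that was scanned on a different day. The slide and the array can therefore not be told apart for the arrays 2.

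**Figure D1:**
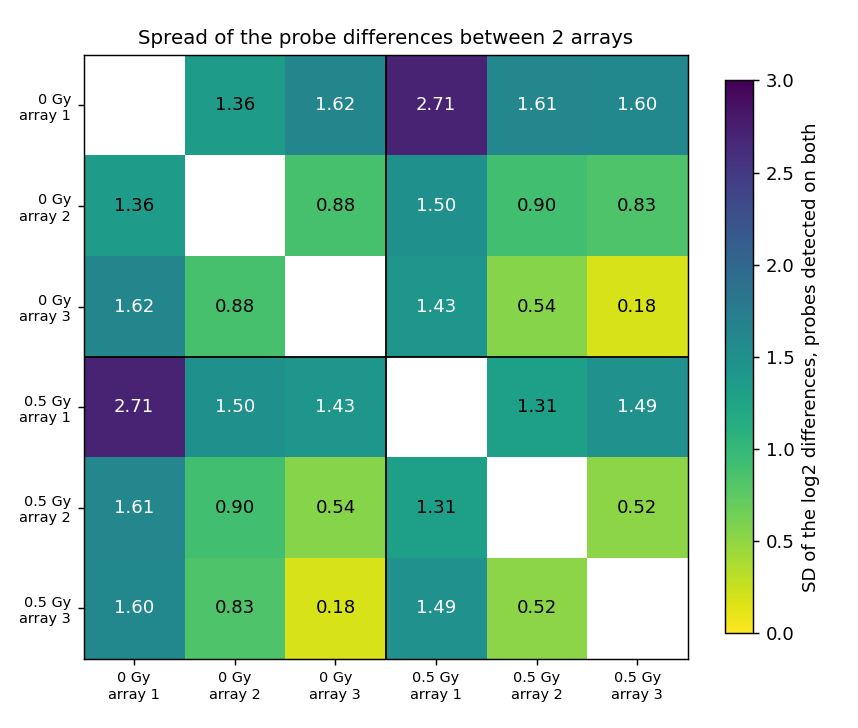
SD of the log2 differences over probes detected on both arrays, for each pair of the 6 arrays; black lines separate the doses, and darker cells are wider differences. The pair of arrays 3 has the smallest value, 0.18, and the pair of arrays 1 the largest, 2.71.

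The array holds probes for 1881 miRNAs, of which 436 were above background on 1 or more of the 6 arrays and 29 on all 6. The 0 Gy arrays detected 234, 157 and 185 miRNAs, and the 0.5 Gy arrays 216, 173 and 195 (192 ± 39.0 and 195 ± 21.5, SD, n = 3). The ranges overlap, and the exact two-sided permutation p was 1, where 3 against 3 arrays cannot give less than 0.1. The test took the 186 miRNAs detected on at least 3 of the 6 arrays, whichever the dose. Exactly 3 detections came as 1 at 0 Gy and 2 at 0.5 Gy in 26 miRNAs, as 2 and 1 in 9, and as 3 and 0 in 1. For those 26, the pattern of detection itself favours a higher mean at 0.5 Gy. Counts of list members by direction therefore describe the lists and do not test a shared direction.

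None of the 186 tested miRNAs (0%) passed an adjusted p of 0.05 in limma, and the smallest adjusted p was 0.604. Unadjusted p-values under 0.05 numbered 4, which is 2.15% of those tested, and all 4 belonged to miRNAs of higher mean at 0.5 Gy. Without array 1 of 0.5 Gy, 184 miRNAs were tested, none (0%) passed, and the lowest adjusted p was 0.928. None had an unadjusted p under 0.05 in that fit. Without both arrays 3, none of 193 passed and 10 had an unadjusted p under 0.05. With the slide as a block, 0 passed, and within the slide that holds arrays 1 and 3 of both doses, 0 of 226 passed. The fits without both arrays 3 and within that slide had fewer arrays and asked for detection on fewer of them. Their tested miRNAs are therefore another set than the 186. A missing call does not show that the doses gave equal levels. The median standard error of a difference was 0.67.

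By direction, 77 of the 186 (41.4%) had a higher mean at 0.5 Gy and 109 a lower one, and the median difference was -0.25. Without array 1 of 0.5 Gy the split was 91 of 184 higher (49.5%) and 93 lower, and the median was -0.01. With all arrays, 52 of the 69 miRNAs with a RefSeq sequence and a number below 1000 had higher means, and most listed members carry such numbers. The dose means of 153 of the 186 differed by less than the larger of the 2 SDs. The median SD over the tested miRNAs was 0.53 at 0 Gy and 0.78 at 0.5 Gy, and 0.19 between arrays 2 and 3 of 0.5 Gy. Array 1 of 0.5 Gy was the lowest of the 6 for 84 of the 109 miRNAs of lower mean. Array 1 of 0 Gy was the lowest, or tied for the lowest at the floor, for 52 of the 77 miRNAs of higher mean. It was the highest for 63 of the 109 of lower mean. In these counts a tie went to the first array in order, with 0 Gy before 0.5 Gy, so the 52 are not lows of that array alone.

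Set side by side by number, the arrays gave very different differences between the doses. Between the arrays 1, 125 of the 186 miRNAs differed by more than 1 log2 unit, and the median absolute difference was 1.64. Between the arrays 2, 47 did, with a median of 0.51. Between the arrays 3, 0 did, and the median was 0.12. The labels do not say whether equal numbers share a source, and the main test did not pair the arrays.

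**Figure D2:**
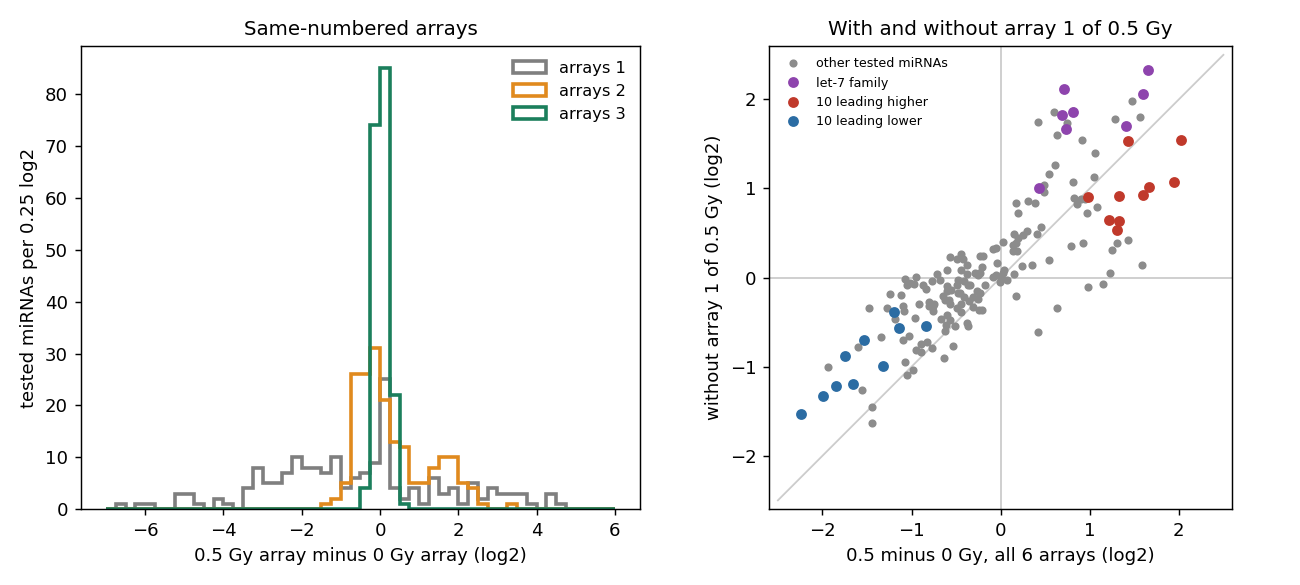
Left, how many of the 186 tested miRNAs fall in each step of 0.25 log2 of the difference between same-numbered arrays, 0.5 Gy minus 0 Gy. The arrays 3 form a narrow peak at 0, with no miRNA beyond 0.55, while the arrays 1 spread over several log2 units. Right, each miRNA's difference between the dose means with all 6 arrays (horizontal) and without array 1 of 0.5 Gy (vertical), where the grey diagonal marks equal values and colours mark the let-7 family and the leading miRNAs.

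The let-7 family had higher means at 0.5 Gy in all 8 members tested, beside 41.4% of all miRNAs tested, and none of the 8 passed the test. let-7 miRNAs repress growth and cell cycle genes such as Ras, Hmga2 and Lin28, and their levels increase in most tissues as cells differentiate. The array holds 10 members, 8 of them detected. The mean over the 8 was 4.39, 5.48 and 8.20 on arrays 1, 2 and 3 of 0 Gy and 5.40, 7.63 and 8.05 on those of 0.5 Gy. The groups overlap, since array 3 of 0 Gy was the highest of the 6. The median difference over the members was 0.77, beside -0.25 over all miRNAs tested.

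let-7b-5p, the brightest member, measured 7.19, 8.33 and 10.90 at 0 Gy and 9.62, 10.14 and 10.87 at 0.5 Gy. The first 2 values at 0 Gy lie below every 0.5 Gy value, and the last one lies above them. Its difference was 1.40 ± 0.85 (SE; limma, adjusted p = 0.604). let-7a-5p measured 4.42, 7.05 and 9.60 against 7.31, 9.26 and 9.46, a difference of 1.65 ± 1.18. For let-7c-5p the levels were 5.88, 7.64 and 10.40 against 8.65, 9.72 and 10.35, a difference of 1.60 ± 1.01. These 3 members were detected on all 6 arrays, and array 3 of 0 Gy was the highest array for each. Their sequences, printed above, are close, and signal shared between their probes was not tested.

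The other 5 members were not detected on either array 1. let-7f-5p was at the floor on both arrays 1, and measured 5.49 and 7.78 on arrays 2 and 3 of 0 Gy and 7.80 and 7.62 on those of 0.5 Gy. let-7e-5p was detected on array 3 of 0 Gy at 7.10 and on arrays 2 and 3 of 0.5 Gy at 6.41 and 6.88, and on no other. let-7d-5p, let-7g-5p and let-7i-5p were likewise at the floor on both arrays 1, and differed between the dose means by 0.69, 0.43 and 0.73. Of these 5 members, let-7e-5p, let-7g-5p and let-7i-5p entered the test with 1 array of 0 Gy and 2 of 0.5 Gy.

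The size of the family's difference turned on single arrays, and the sign of its median changed with the slide as a block. Slide and array cannot be told apart for the arrays 2, so that change is not assigned to the slide. Leaving out array 1 of 0.5 Gy gave a median of 1.84. Leaving out array 1 of 0 Gy gave 0.17, with 6 members above 0. Leaving out array 3 of 0 Gy gave 2.45 over the 5 members still tested. Without both arrays 3 it was 2.12 over those 5 members, and without both arrays 1 it was 1.03. With the slide as a block, 3 of the 8 members stayed above 0 and the median was -0.11. Within the shared slide, the 3 members detected on every array differed by 1.20 to 1.38. The other 5, at the floor on both arrays 1, differed by -0.11 to -0.08. Between the arrays 3, let-7b-5p differed by -0.03 and let-7e-5p by -0.22. A further setting raised the floor of all arrays to 7.34, that of array 1 of 0.5 Gy, so that all lower levels became equal. With that raised floor the family's median was 0.05, with 4 of 8 members above 0.

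**Figure D3:**
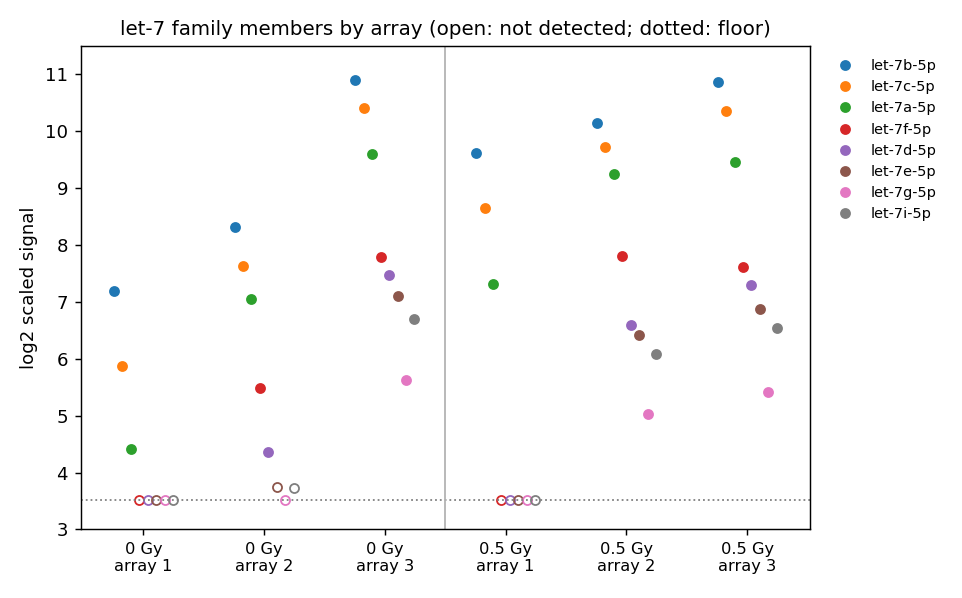
Level (log2 scaled signal) of the 8 tested let-7 members on each of the 6 arrays, 1 colour per member, with filled points where the member was detected, open points where it was not, and the floor dotted. On both arrays 1 only the members a, b and c were detected, and array 3 of 0 Gy is as high as array 3 of 0.5 Gy.

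The miR-125 pair shares the seed CCCUGAG, the vertebrate counterpart of worm lin-4. miR-125a-5p had the second smallest unadjusted p of the comparison, 0.0258. It measured 3.63, 4.77 and 6.71 at 0 Gy and 8.02, 6.45 and 6.72 at 0.5 Gy, and it was detected on all 6 arrays. The doses overlap by array 3 of 0 Gy. The difference was 2.02 ± 0.77 (adjusted p = 0.604), and 1.55 ± 0.80 without array 1 of 0.5 Gy (adjusted p = 0.928).

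miR-125b-5p, which restrains osteoblast differentiation in mesenchymal cells and targets p53 messenger RNA, measured 5.51, 7.35 and 9.29 at 0 Gy and 8.46, 9.10 and 9.26 at 0.5 Gy. Again array 3 of 0 Gy was the highest of the 6. The difference was 1.56 ± 0.85, and 1.80 without array 1 of 0.5 Gy. miR-99b-5p, from the same cluster as let-7e-5p and miR-125a-5p, was detected on 1 array of 0 Gy and 2 of 0.5 Gy, with a difference of 0.92. Of the 8 miR-125 and miR-10/100 relatives on the array, these 3 were tested, all had higher means and none passed. Their median was 1.56 with all arrays, and leaving out an array moved it from 0.74 (array 1 of 0 Gy) to 2.69 (array 3 of 0 Gy, with 2 members tested). For the same 2 members it was 2.69 without both arrays 3. With the raised floor it was 0.23 over the 3, with 2 of them above 0.

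For p53 and the DNA damage response, 6 of 21 listed miRNAs on the array were tested. All 6 had higher means, beside 41.4% of all miRNAs tested, and none passed. miR-34a-5p, the direct p53 target that represses cyclin and Bcl2 family messages, was detected on arrays 2 and 3 of each dose. It measured 3.52 (floor), 4.32 and 6.76 at 0 Gy and 6.08, 6.24 and 6.55 at 0.5 Gy, where the 6.08 was not above background by the detection rule. Array 3 of 0 Gy was the highest of all 6, so the doses overlap. The difference was 1.43 ± 0.77 (adjusted p = 0.604), with 1.53 without array 1 of 0.5 Gy. Between the arrays 3, it lay lower at 0.5 Gy.

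miR-23a-3p and miR-24-3p come from the same primary transcript. miR-23a-3p, which represses Runx2, measured 3.52, 5.01 and 6.88 at 0 Gy and 5.42, 7.13 and 6.70 at 0.5 Gy, a difference of 1.28 ± 0.88. miR-24-3p, which represses the histone H2AX, measured 3.52, 4.40 and 6.57 against 3.52, 6.32 and 6.54, a difference of 0.63. Both were undetected on both arrays 1. miR-103-3p, miR-107-3p and miR-16-5p were detected on 1 array of 0 Gy and 2 of 0.5 Gy, with differences of 0.48, 0.39 and 0.14. The list's median was 0.56, and 1.29 once array 1 of 0.5 Gy was left out. It was 0.15 without array 1 of 0 Gy and, over the 3 members still tested, 2.15 without array 3 of 0 Gy, or 2.01 without both arrays 3. With the slide as a block it was -0.06, with 2 of 6 members above 0. With the raised floor it was 0, with 0 of 6 above 0. miR-34b-5p, miR-34c-5p and miR-192-5p were detected on no array.

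Among miRNAs known to restrain Runx2 or osteoblast differentiation, 8 of 23 on the array were tested. All 8 had higher means, beside 41.4% of all miRNAs tested, and none passed the test. miR-103-3p, miR-26a-5p, miR-30a-5p and miR-30d-5p entered it with detection on 1 array of 0 Gy and 2 of 0.5 Gy. The list's median was 0.94, and 1.35 once array 1 of 0.5 Gy was left out. It was 0.33 without array 1 of 0 Gy and, over the 4 members still tested, 1.96 without array 3 of 0 Gy. Without both arrays 3 it was 2.01 over 5 members. With the slide as a block it was 0.76, with 5 of 8 above 0. With the raised floor it was 0, with 2 of 8 above 0. miR-30d-5p, of the miR-30 family that represses Runx2 and Smad1, had the smallest unadjusted p of the comparison, 0.0242. It measured 3.52, 3.52 and 4.02 at 0 Gy and 5.84, 5.04 and 4.16 at 0.5 Gy, and it is the only member of the list whose doses did not overlap. It was detected on array 3 of 0 Gy and arrays 2 and 3 of 0.5 Gy, and its highest value, on array 1 of 0.5 Gy, did not meet the detection rule. The difference was 1.33 ± 0.50 (adjusted p = 0.604), and 0.92 ± 0.48 without that array. The gap between the arrays 3 was 0.14.

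miR-30a-5p, with the same function, measured 3.52, 3.52 and 4.85 against 5.42 (not detected), 4.67 and 4.70. miR-214-3p, which represses the osteoblast factors Atf4 and Osterix, measured 5.13, 6.89 and 8.58 against 6.52 (not detected), 8.35 and 8.47. Its difference was 0.91 ± 0.86, but it was -0.14 after quantile normalization. miR-23b-3p and miR-26a-5p had differences of 0.75 and 0.54.

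miR-214-3p and miR-199a lie in a cluster transcribed from the opposite strand of Dnm3, which is active in mesenchymal cells. The stromal list holds 10 miRNAs on the array and reaches beyond this cluster, with miR-22-3p and miR-27b-3p among them. Of the 10, 5 were tested, all 5 had higher means, none passed, and the median was 0.82. miR-143-3p and miR-145a-5p, also listed, were detected on no array. Of the 5, miR-199a-5p, miR-22-3p and miR-27b-3p entered the test with 1 array of 0 Gy and 2 of 0.5 Gy. miR-199a-3p measured 3.52, 4.64 and 7.00 at 0 Gy and 3.76, 7.02 and 6.82 at 0.5 Gy. Its partner strand miR-199a-5p measured 3.52, 3.52 and 4.72 against 6.28, 4.64 and 4.49. Both strands overlap between doses. Array 1 of 0.5 Gy is the lowest of its dose for the -3p strand and the highest for the -5p strand, but neither strand was detected on it. The differences were 0.82 ± 1.13 and 1.22 ± 0.59. miR-22-3p, detected on array 3 of 0 Gy and arrays 2 and 3 of 0.5 Gy, differed by 0.44. The list's median was 0.09 when array 1 of 0 Gy was left out. Leaving out array 3 of 0 Gy in its place gave 1.78 over the 2 members still tested, and leaving out both arrays 3 gave 1.37 over 2. With the slide as a block the median was 0.14, with 4 of 5 above 0. With the raised floor it was 0, with 1 of 5 above 0.

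The miRNAs known to promote osteoblast differentiation did not share a direction. Of 12 on the array 5 were tested, 3 higher and 2 lower, none past the test. miR-3960 and miR-2861, a cluster that relieves Runx2 of its repressors Hoxa2 and Hdac5, were lower. miR-3960 measured 10.42, 11.38 and 10.41 at 0 Gy and 10.63, 10.04 and 10.41 at 0.5 Gy, a difference of -0.38 ± 0.47. miR-2861 measured 6.25, 6.99 and 7.07 against 5.85, 6.63 and 6.73, a difference of -0.36 ± 0.44. The ranges overlap in both.

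miR-15b-5p, which protects Runx2 from the ubiquitin ligase Smurf1, measured 3.52, 5.41 and 7.79 against 6.02 (not detected), 7.38 and 7.74. Its difference was 1.47 ± 1.00. miR-29a-3p, which lowers inhibitors of Wnt signalling, measured 3.52, 3.80 and 6.51 against 5.00 (not detected), 5.69 and 6.32. miR-181a-5p was detected on all 6 arrays and measured 6.37, 6.07 and 7.63 against 7.61, 7.36 and 7.67. Its difference was 0.86 ± 0.50, and it changed sign with the scaling, to -0.22 with quantile normalization and -0.40 with arrays scaled on all probes.

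The list's median of 0.86 turned with that miRNA, to -0.22 and -0.40 under the same scalings. miR-15b-5p, miR-16-5p and miR-497a-5p share the seed AGCAGCA, and the miR-15/16 family restrains cyclins and Bcl2. All 3 tested members of 6 on the array had higher means, none passed, and the median was 0.20. Of the 3, miR-16-5p and miR-497a-5p entered the test with 1 array of 0 Gy and 2 of 0.5 Gy. Leaving out array 1 of 0.5 Gy gave a median of 0.45. Leaving out array 1 or array 2 of 0 Gy gave 0.0459 with 2 of 3 members higher, and leaving out array 3 of 0 Gy left 1 member, miR-15b-5p, at 2.58. Within the shared slide the median was -0.0281, with 1 of 3 above 0. With the raised floor it was 0, with 0 of 3 above 0.

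Of the miR-17-92 cluster and its paralogs, which drive proliferation, 2 of 12 on the array were tested. miR-92a-3p was detected on all 6 arrays and had an unadjusted p of 0.0495. It measured 3.71, 3.84 and 5.49 at 0 Gy and 8.04, 5.33 and 5.52 at 0.5 Gy. The arrays 3 differ by 0.03, and the top value comes from array 1 of 0.5 Gy. The difference was 1.95 ± 0.87, and 1.08 ± 0.75 without that array. miR-93-5p differed by 0.14.

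Of 9 NF-kB and inflammation miRNAs on the array, 3 were tested, all with higher means and none past the test. Of the 3, miR-221-3p and miR-21a-5p entered the test with 1 array of 0 Gy and 2 of 0.5 Gy. miR-221-3p, which represses the cell cycle inhibitor p27, measured 3.52, 3.52 and 4.64 against 5.02 (not detected), 5.09 and 4.49. miR-21a-5p, an AP-1 target that represses Pdcd4, measured 3.52, 3.52 and 4.95 against 3.52, 4.72 and 5.20. Their differences were 0.98 and 0.48, and in each the values on array 3 of 0 Gy fall within the 0.5 Gy range. The remaining one is miR-125a-5p, described above. The list's median was 0.98 with all arrays and 0.59 with the slide as a block, with 2 of 3 above 0. With the raised floor it was 0, with 1 of 3 above 0. miR-155-5p and miR-146a-5p, the main NF-kB responders, were detected on no array.

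The remaining leading miRNAs of higher mean include a pair from neighbouring genes, Mir193b and Mir365-1. miR-365-3p measured 3.52, 4.07 and 5.08 at 0 Gy and 7.18, 5.53 and 4.96 at 0.5 Gy, and miR-193b-3p, which restrains proliferation, measured 3.91, 4.09 and 6.05 against 7.65, 5.35 and 5.86. Both were undetected on array 1 of 0.5 Gy, which gave the highest value of each. The differences were 1.67 ± 0.66 (unadjusted p = 0.0305) and 1.60 ± 0.78, and 1.02 and 0.92 without that array.

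miR-331-3p, detected on all 6 arrays, measured 5.38, 5.61 and 6.49 against 8.54, 6.42 and 6.51. The arrays 2 and 3 of 0.5 Gy both lie close to array 3 of 0 Gy. miR-574-3p measured 3.84, 4.19 and 4.61 against 7.08, 4.70 and 4.80, so its doses did not overlap. The nearest arrays, at 4.61 and 4.70, were close, and quantile normalization gave a difference of -0.10.

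Over the 10 leading miRNAs of higher mean, the median difference was 1.38 with all arrays, 0.92 without array 1 of 0.5 Gy and 0.69 without both arrays 1. Without both arrays 3 it was 2.53 over the 6 still tested. They were chosen by these values, so the medians are a description. After normexp background correction and quantile normalization the 10 ranged from -0.02 to 0.18.

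**Figure D4:**
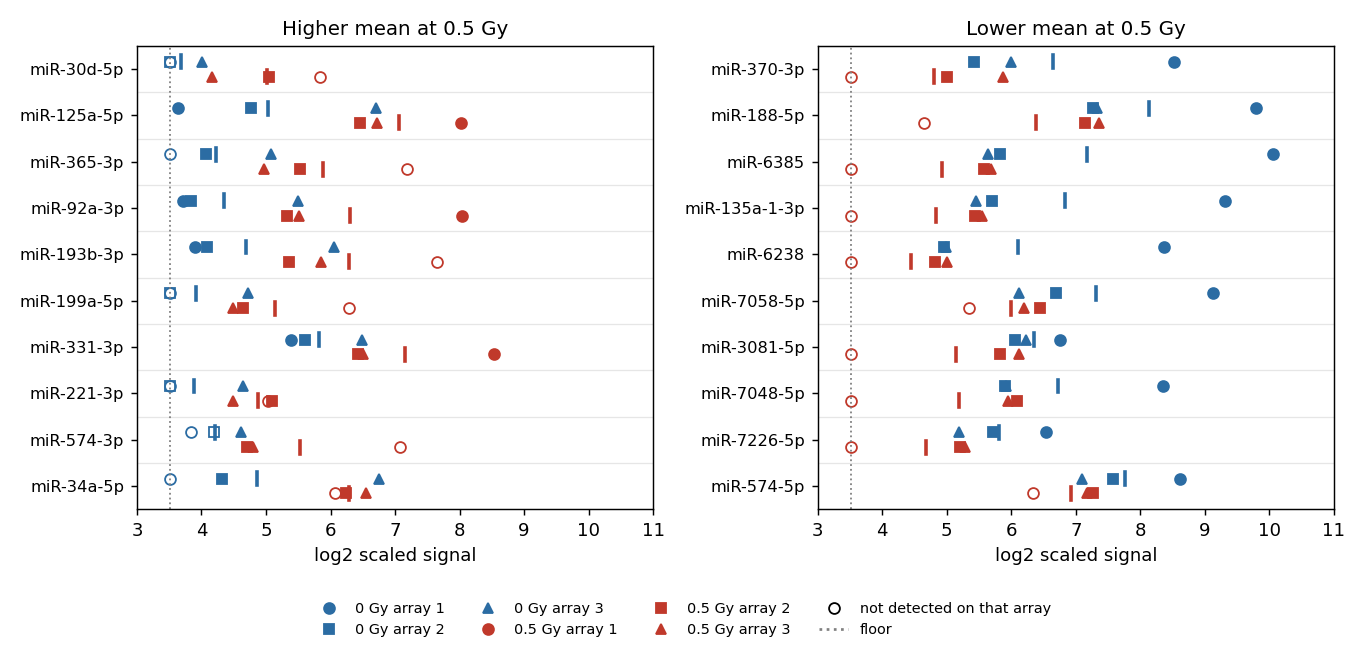
The 10 miRNAs of smallest unadjusted p among those of higher mean (left) and lower mean (right) at 0.5 Gy, each with its log2 scaled signal on the 3 arrays of 0 Gy (blue) and of 0.5 Gy (red); vertical ticks are dose means, open symbols mark arrays where the miRNA was not detected, and the dotted line is the floor. On the right, array 1 of 0 Gy lies highest and array 1 of 0.5 Gy lowest for every miRNA, with the other 4 arrays between them. For miR-370-3p those 4 ran from 5.0 to 6.0.

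The leading miRNAs of lower mean held 31.8% to 54.5% guanine, where 73 of the 165 tested miRNAs with a sequence held over 45%. Late miRBase numbers of 1000 or above, for which little function is known, belong to 6 of the 10. This is near their share of the tested miRNAs, 96 of those 165. miR-370-3p, an imprinted miRNA of the Dlk1-Dio3 region, measured 8.53, 5.42 and 6.00 at 0 Gy and 3.52, 5.01 and 5.86 at 0.5 Gy. miR-188-5p, which shifts marrow stromal cells from osteoblasts toward adipocytes, measured 9.79, 7.27 and 7.33 against 4.65, 7.14 and 7.35. In both, array 1 of 0 Gy was the highest and array 1 of 0.5 Gy, where neither was detected, the lowest. The differences were -1.85 ± 0.90 and -1.75 ± 0.87 (adjusted p = 0.604).

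miR-6385 had the most negative difference of the comparison, -2.24 ± 1.18. It measured 10.05, 5.83 and 5.63 against 3.52, 5.58 and 5.69. miR-135a-1-3p measured 9.32, 5.71 and 5.45 against 3.52, 5.44 and 5.55. In each, the 4 arrays numbered 2 and 3 lie close together.

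miR-6238, miR-7058-5p, miR-3081-5p, miR-7048-5p, miR-7226-5p and miR-574-5p also had array 1 of 0 Gy highest and array 1 of 0.5 Gy lowest, with differences from -1.66 to -0.84. Of these 10 miRNAs, 0 were detected on array 1 of 0.5 Gy. Their median difference was -1.60 with all arrays. Leaving out array 1 of 0.5 Gy gave -0.94, and leaving out array 1 of 0 Gy gave -0.76. Without both arrays 1 it was -0.09, with values from -0.27 to 0.11, and without both arrays 3 it was -2.41.

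The -5p and -3p strands of miR-574 stood on opposite sides, at -0.84 and 1.31. As printed above, the -5p strand is a run of UG repeats with 47.8% guanine, and the -3p strand holds 9.09%.

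Across the tested miRNAs, guanine content followed the difference between doses. Over the 165 with a sequence, Pearson's r between the percentage of guanine and the difference was -0.59 and Spearman's rho was -0.59. This is a description across miRNAs, which share arrays and are not independent replicates. Of the 33 miRNAs with up to 25% guanine, 31 had higher means, with a median difference of 1.15. Of the 73 with over 45%, 10 had higher means, with a median of -0.61.

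The relation depended on the arrays. It was r = -0.56 between the arrays 1, -0.41 between the arrays 2, and 0.18 between the arrays 3, and it was -0.39 without array 1 of 0.5 Gy. On array 1 of 0.5 Gy the median level was 6.92 for the low guanine class and at the floor for the 3 others. On array 1 of 0 Gy the order was the reverse, with medians of 3.63 for the low class and 6.25 for the high one. On the arrays 3 the 4 classes lay between 4.95 and 5.59. The classes also differed in name: of the 96 miRNAs numbered 1000 or above, 18 had higher means, against 52 of the 69 numbered below.

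**Figure D5:**
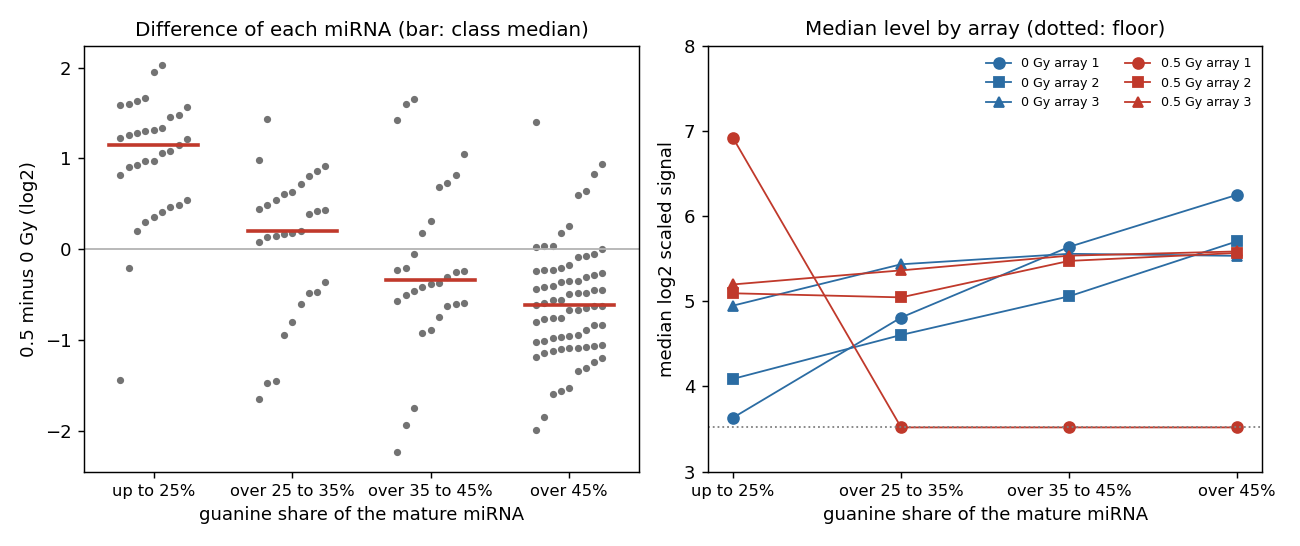
Left, the difference 0.5 minus 0 Gy (log2) of each of 165 tested miRNAs by the guanine share of its mature sequence, with red bars at the class medians of 1.15, 0.20, -0.34 and -0.61. Right, the median level of each class on each array. Array 1 of 0.5 Gy is high in the class of least guanine and at the floor in the others, and array 1 of 0 Gy slopes the other way.

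The Dlk1-Dio3 cluster holds many miRNAs of early development, and 2 of 47 on the array were tested, both with lower means. miR-494-3p was the brightest miRNA over the 6 arrays. It measured 15.99, 10.87 and 10.38 at 0 Gy and 11.34, 11.07 and 10.48 at 0.5 Gy. The mean at 0 Gy is high through 1 array. The other 5 lie between 10.38 and 11.34. The difference was -1.45 ± 1.23 and turned to 0.16 without both arrays 1 and to 0.32 after quantile normalization. The exact permutation p for its share of the signal per array was 0.5.

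The other very bright miRNAs varied less. miR-5126 measured 10.34, 10.80 and 10.94 against 10.67, 10.68 and 10.81, and miR-8110 measured 10.33, 11.05 and 10.87 against 10.53, 10.60 and 10.96. Their differences were 0.03 ± 0.39 and -0.05 ± 0.41, within the spread of either dose. miR-1224-5p measured 13.20, 11.14 and 11.19 against 11.11, 10.84 and 11.27, a difference of -0.77 ± 0.58. Only array 1 of 0 Gy exceeded the others.

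Of 13 miRNAs in the miR-3473 family and its relatives, 10 were tested. Of these, 6 had higher means, none passed, and the median was 0.19. The split depended on the setting. With arrays scaled on all probes, 1 of the 10 was higher (median -0.38), and with the slide as a block 3 were (median -0.41). Leaving out array 2 of 0.5 Gy gave 3 higher (median -0.32), leaving out array 1 of 0.5 Gy 7 (median 0.51), and leaving out array 1 of 0 Gy 9 (median 0.26). miR-3473b measured 10.20, 9.50 and 10.14 at 0 Gy and 10.64, 11.56 and 10.12 at 0.5 Gy, a difference of 0.83 ± 0.65, which turned to -0.44 when arrays were scaled on all probes. miR-6366 measured 8.53, 9.54 and 10.07 against 10.45, 10.87 and 9.65, a difference of 0.94 ± 0.55, which turned to -0.32 under that scaling. miR-3473a stood out on array 2 of 0.5 Gy, at 8.05 against 5.50 to 6.47 on the other 5. Of the 6 tested miRNAs of the Sfmbt2 cluster, taken by the start of their names, 2 had higher means and the median was -0.12. Leaving out array 1 of 0.5 Gy turned this to 5 of 6 higher and a median of 0.15.

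Some miRNAs stood apart on array 2 of 0.5 Gy, the array scanned on another day. miR-6931-5p measured 5.34, 5.32 and 5.68 at 0 Gy and 3.52, 8.81 and 5.80 at 0.5 Gy. That one value gave the largest difference between the arrays 2, 3.49, and its difference between doses was 0.60 ± 1.19. Without array 1 of 0.5 Gy it was 1.86, and with the slide as a block it was -0.52.

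The arrays of the 2 doses did not overlap for 4 miRNAs that were higher (2.15%) and 4 that were lower (2.15%). Without array 1 of 0.5 Gy, where 2 arrays face 3, there were 7 and 7 (3.8% each). Besides miR-30d-5p and miR-574-3p, the higher ones were miR-3620-3p and miR-7022-3p. Each was far higher on array 1 of 0.5 Gy, at 7.08 and 8.00, than on arrays 2 and 3, which lay just above the 0 Gy values. The 7.08 of miR-3620-3p did not meet the detection rule. The lower ones were miR-125a-3p, miR-149-3p, miR-328-5p and miR-7040-5p. miR-125a-3p, the partner strand of miR-125a-5p, measured 5.62, 6.06 and 5.48 against 5.29, 5.18 and 5.17. Its difference was -0.51 ± 0.46 and -0.55 without array 1 of 0.5 Gy, while the -5p strand had a higher mean.

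miR-328-5p was the only miRNA detected on every array of one dose and on none of the other. It measured 4.50, 4.44 and 3.92 at 0 Gy and 3.52, 3.85 and 3.77 at 0.5 Gy, where it was not well above background. No fold is given, since the background of array 1 of 0.5 Gy lies above its level at 0 Gy.

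Several tested miRNAs are encoded as neighbours within 10 kb in RefSeq, in 12 groups, of which 10 had a median difference above 0 and 2 below. The groups are not independent, since Mir181a-1 with Mir181b-1 and Mir181a-2 with Mir181b-2 hold the same 2 mature miRNAs. miR-24-3p also counts in 2 groups. Over all miRNAs tested, 41.4% had higher means. Mir193b and Mir365-1 had a median of 1.63, Mirlet7c-2 and Mirlet7b 1.50, Mir199a-2 and Mir214 0.91, and Mir15b and Mir16-2 0.81. The 2 below 0 were Mir7221 with Mir7222, at -0.41, and Mir7686 with Mir202, at -0.34. In the Mirlet7e and Mir125a group the median was 0.81, but its 3 mature strands ran from -0.51 to 2.02. For each of the 20 leading miRNAs, the separate probes gave the same sign. Those miRNAs were chosen by the sum of these probes on the same arrays, so this is a description and no support. It also counts probes of miR-574-3p and miR-199a-5p detected on 0 of the 6 arrays, and probes of miR-30d-5p and miR-6238 detected on 1.

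Markers of other cell types were used to check the label. Of 10 stromal miRNAs, 6 were detected, and their summed signal was 80.5, 327 and 1305 scaled units on arrays 1 to 3 of 0 Gy and 351, 1144 and 1238 on those of 0.5 Gy. miR-143-3p, miR-145a-5p, miR-100-5p and miR-10b-5p were detected on no array. Of 6 myeloid miRNAs, miR-223-3p and miR-342-3p were detected, with summed signals of 0 to 70.3 at 0 Gy and 0 to 60.7 at 0.5 Gy, and the pan-leukocyte miR-142a-3p was not. Of 4 lymphoid miRNAs, miR-181a-5p and miR-181b-5p were detected, which other cells also express, and miR-150-5p was not. No erythroid, endothelial, muscle, epithelial, liver or neuronal marker was detected. The stromal sum and the let-7 mean were both lowest on array 1 of 0 Gy and highest on array 3 of 0 Gy, and the part of the stromal level in these results was not tested. In such bulk RNA, fewer cells of a type and less miRNA per cell cannot be told apart.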

How the data were processed

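Total RNA of each sample was labelled with Cy3 and hybridised to a 1-colour Agilent mouse miRNA array of 1881 miRNAs. Deposited scanner files held spot intensity, which the scanner software (Feature Extraction 11.5.1.1) had background-subtracted but, per the file headers, had not normalized between arrays. Control and outlier spots were left out, spots were averaged per probe, and a probe was detected when at least 50% of its spots were well above background. Arrays were scaled on the 75th percentile over 45 probes detected on all 9 arrays. Probes were summed per miRNA, raised to a floor of 11.5 scaled units (the 1st percentile of detected values) and log2 transformed. limma 3.58.1 in R 4.3.3 was fitted over 9 arrays with 1 mean per dose, for miRNAs detected on at least 3 of the 6 arrays, with Benjamini-Hochberg adjustment at 0.05, two-sided. The script was tested on simulated data. Alternatives were other scalings, background corrections, floors, detection filters, blocks and array weights, and fits with arrays left out. Fits without both arrays 1, without both arrays 3 and within the shared slide asked for detection on fewer than 3 arrays. The number of arrays limits the precision.

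Named miRNAs were the 10 of smallest p in each direction, the 5 in each direction without array 1 of 0.5 Gy, the 10 brightest, up to 4 per list, those detected in 1 dose only, and shared seeds with 3 or more tested members. Others named were chosen after their values were seen. The members, rules and lists were chosen with earlier results of these data known. A series table with 9 value columns whose names match no sample label was not used. Normexp used median signals.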

Additional observations from a re-analysis of the deposited data

How the results depend on the processing

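No setting gave a miRNA past the adjusted threshold. Over the 6 fits that left out 1 array in turn, the count stayed at 0, with 0 to 18 unadjusted p-values under 0.05, the most without array 3 of 0 Gy. limma array weights gave 36 such p-values and a smallest adjusted p of 0.183, and 38 and 0.0710 without array 1 of 0.5 Gy. Whether array number pairs the samples was not settled. Same-numbered arrays correlated in their deviations by 0.07, -0.03 and 0.20, and arrays of other numbers by -0.14 to 0.06. Arrays 1 and 3 of 0 Gy correlated best with their own number, and array 2 of 0 Gy with array 1 of 0.5 Gy. With the replicate block, 0 miRNAs passed, 10 unadjusted p-values lay under 0.05, and the lowest adjusted p was 0.444.

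The number of miRNAs whose doses did not overlap, 8 of the 186 tested, depended on the setting. Scaled on all probes it was 0 of 186, with no scaling 16 of 186, and with double the floor 3 of 186. For miRNAs detected on all arrays of 1 dose or on all 6 arrays it was 4 and 0. The scanner software's detection call gave 16, and the shared slide alone gave 33. It was 28 without both arrays 1, 15 of 186 for the same miRNAs without array 1 of 0.5 Gy, and 11 to 58 over the leave-one-out fits. Of the settings added after seeing the data, it was 87 without both arrays 3 and 14 of 184 without array 1 of 0.5 and 1 Gy. With the floor of the high-background array set for all, also added then, it was 0 of 186. Within the shared slide and without both arrays 1 or both arrays 3, fewer arrays were compared, and fewer arrays overlap less by construction. The settings also differ in how many miRNAs were tested, so these counts do not compare across settings. The numbers tested within the shared slide and without both arrays 3 are given above, and no share is given for the remaining settings.

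The median difference of -0.25 became 0.95 over all 436 miRNAs detected on any of the 6 arrays, 150 of them on array 1 of 0.5 Gy alone, and ranged from -0.53 to -0.01 when 1 array was left out. Of 186 miRNAs, 61 were higher when scaled on all probes (median -0.43), 58 after quantile normalization (-0.44), 62 with no scaling (-0.63), 55 after normexp and 63 with the total gene signal, against 77.

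Some named differences, none of which passed the test, changed sign, and the cause was not tested. Scaled on all probes, miR-181a-5p gave -0.40, miR-3473b -0.44 and miR-6366 -0.32. Quantile normalization gave miR-574-3p -0.10, miR-214-3p -0.14, miR-181a-5p -0.22 and miR-494-3p 0.32, and normexp with it gave miR-574-3p -0.0179, miR-181a-5p -0.0101, miR-16-5p -0.0259 and miR-494-3p 0.38. With the slide as a block, values were miR-6931-5p -0.52, let-7f-5p -0.0902, let-7d-5p -0.17, let-7e-5p -0.13, let-7g-5p -0.18, let-7i-5p -0.13, miR-22-3p -0.19, miR-23b-3p -0.0174, miR-24-3p -0.0154, miR-103-3p -0.11, miR-16-5p -0.20, miR-93-5p -0.0338, miR-21a-5p -0.0900 and miR-3960 0.0551. Within the shared slide they were miR-6931-5p -0.85, let-7f-5p -0.0832, let-7d-5p -0.0837, let-7e-5p -0.11, let-7g-5p -0.11, let-7i-5p -0.0782, miR-22-3p -0.11, miR-23b-3p -0.0450, miR-24-3p -0.0154, miR-103-3p -0.0358, miR-497a-5p -0.0281, miR-16-5p -0.0939 and miR-3960 0.11. Without both arrays 1, miR-7048-5p gave 0.11 and miR-494-3p 0.16. The higher common floor gave miR-15b-5p -0.00411 and let-7d-5p -0.0427. When 1 array was left out in turn, miR-6931-5p ranged from -0.79 to 1.86, let-7f-5p from -0.32 to 2.11, let-7d-5p from -0.11 to 1.86, miR-24-3p from -0.0258 to 1.60, miR-16-5p from -0.0050 to 0.36, miR-7005-5p from -1.35 to 0.23 and miR-494-3p from -2.46 to 0.34. Each of these but miR-6931-5p changed sign without array 1 of 0 Gy.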
